A study of Mus musculus with 9 samples.

Results

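Ribosome footprints on the mRNAs of molecular chaperones were examined in 3 mouse striatal cell lines. The set comprised the heat shock proteins of the HSP90, HSP70, HSP110, HSP60 and small heat shock families, the J proteins (DNAJA, DNAJB and DNAJC), the subunits of the chaperonin TRiC, the heat shock factors Hsf1 and Hsf2, the co-chaperone Bag3, and the endoplasmic reticulum (ER) folding proteins Calr, Canx and Pdia3. Members were found by a rule on gene symbols, and 88 of the 36410 rows of the count table belonged to the set. The 3 lines are immortalized striatal cells that carry knock-in Htt exon 1 on a C57/BL6 background. Control cells (STHdhQ7/Q7) have 7 glutamines on both alleles, HD-het cells (STHdhQ7/Q111) have 7 on 1 allele and 111 on the other, and HD-homo cells (STHdhQ111/Q111) have 111 on both. Each line was represented by 3 libraries from independent rounds of culture. Dividing cells were held for 10 min in cycloheximide, which stops elongating ribosomes, and footprints were taken from the 80S monosome fraction. Each genotype was 1 cell line, so that genotype and line cannot be told apart.

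Chaperones bind proteins that are not yet folded or have lost their fold. HSP70 proteins take hold of exposed stretches in a cycle that J proteins start and HSP110 proteins reset, HSP90 acts later on a narrower range of clients, and TRiC is a double ring of related subunits that encloses actin, tubulin and other proteins while they fold. The cytosol, the ER and the mitochondria each have their own set. Cytosolic and mitochondrial chaperone genes respond to HSF1, and ER chaperone genes to the unfolded protein response through ATF6 and XBP1. Many of these proteins have been studied as modifiers of the aggregation of polyglutamine proteins such as mutant huntingtin.

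Library totals ran from 22504543 to 41888701 counts, so that 3 counts, the most that an observed 0 leaves possible, were worth 0.0716 to 0.133 CPM. CPM are counts divided by the library total after scaling for composition, times 1e6. The limit covers counting error only, since amplified fragments are not independent molecules. Members took 4.13 to 4.37% of the counts of a control library, 3.56 to 3.78% in HD-het and 3.71 to 3.80% in HD-homo. Of 12 markers of striatal projection neurons, 4 reached 1 CPM in any library and the dopamine receptors Drd1 and Drd2 were at 0 in all 9, whereas 5 of 6 neural progenitor markers and 6 of 6 mesenchymal markers did so. A footprint count cannot separate fewer cells, less mRNA per cell and fewer ribosomes per mRNA.

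In HD-het cells the set split in part by compartment. Footprints on most cytosolic HSP90, HSP70, HSP110 and TRiC members and on the mitochondrial chaperonin were lower than in control. Those on most ER members were higher. J proteins of the cytosol and nucleus and small heat shock proteins moved in both directions. The compartment classes were set after the values were seen. Of the 88 members, 80 passed the filter on low counts and were tested. In HD-het against control, 26 rose and 32 fell, beside 31.0% of all 12678 genes tested that rose and 29.1% that fell. In HD-homo against control, 9 rose and 18 fell, where 23.3% of all genes rose and 22.3% fell. In HD-homo against HD-het, 28 rose and 22 fell, beside 34.6% and 32.8% of all genes. The median log2 fold change over the tested members was -0.10, -0.01 and 0.05 in the 3 comparisons, and 0.02 over all genes in each of them, so the set as a whole did not move one way. The 2 comparisons with control share the control libraries.

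**Figure D1:**
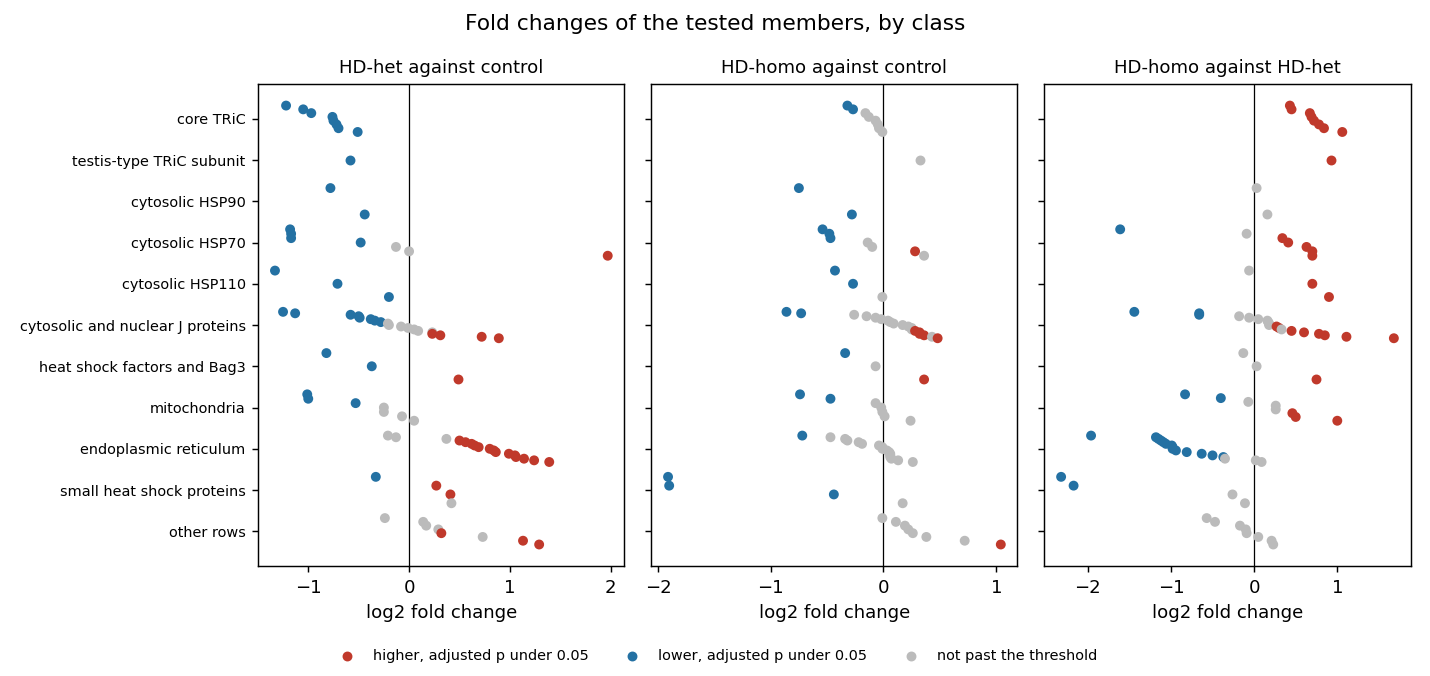
Log2 fold change (x axis) of each tested member (points), grouped by class (rows), in the 3 comparisons (panels). All 8 core TRiC subunits lie to the left of 0 in HD-het against control and 14 of 17 ER members are marked as higher; Dnajc15, which had no count in control, is left out of the first 2 panels.

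TRiC gave the most uniform pattern. All 8 core subunits, Tcp1 and Cct2 to Cct8, had fewer footprints in HD-het than in control cells, without overlap between the libraries. Of all genes tested, 29.1% fell in HD-het, and the share without such overlap was not counted here. Cct5 was at 1398, 1399 and 1462 CPM in control, 596, 612 and 621 CPM in HD-het and 1282, 1244 and 1282 CPM in HD-homo. Thus the HD-het libraries stood apart from both other lines. The log2 fold change of Cct5 in HD-het against control was -1.22 ± 0.07 (SE, n = 3 libraries per group, adjusted p = 1.71e-07), the largest fall among the subunits. Cct2 was next, with 1436, 1499 and 1381 CPM in control against 676, 688 and 716 CPM in HD-het (log2 fold change -1.05 ± 0.08, adjusted p = 1.19e-06). Cct7 fell least, from 836, 861 and 829 to 582, 585 and 605 CPM (-0.51 ± 0.08, adjusted p = 0.000197). The other 5 subunits lay between these, at -0.97 for Cct3, -0.76 for Cct8, -0.75 for Tcp1, -0.72 for Cct6a and -0.70 for Cct4. The median of the 8 was -0.76, and the summed level of the subunits was 8946 ± 137 CPM in control and 4942 ± 147 CPM in HD-het (mean ± SD, n = 3).

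HD-homo cells did not share this fall. Here 2 of 8 subunits fell past the threshold against control, beside 22.3% of all genes. These were Tcp1 (log2 fold change -0.32 ± 0.08, adjusted p = 0.0061) and Cct2 (-0.27 ± 0.08, adjusted p = 0.0141). The summed level of the 8 was 8085 ± 515 CPM. Cct2 was no longer past the threshold without control replicate 2 (adjusted p = 0.0646), and 5 subunits (Tcp1, Cct2, Cct3, Cct5 and Cct8) were lower when trends in GC content and length were removed. Cct5 was also past it in DESeq2 (adjusted p = 0.014). Against HD-het, all 8 subunits were higher in HD-homo, by 0.43 (Tcp1) to 1.06 (Cct5) on the log2 scale, beside 34.6% of all genes. Their libraries again did not overlap, and the share of all genes without overlap was not counted here either. HD-het was thus the lowest line for all 8, while control and HD-homo libraries overlapped for Cct3, Cct4, Cct6a, Cct7 and Cct8. The call in HD-het held for all 8 under each of the 18 alternative settings. The annotated spans of Tcp1, Cct6a, Cct7 and Cct8 overlap other protein-coding genes, and the use of strand in counting is not given in the sources used here.

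**Figure D2:**
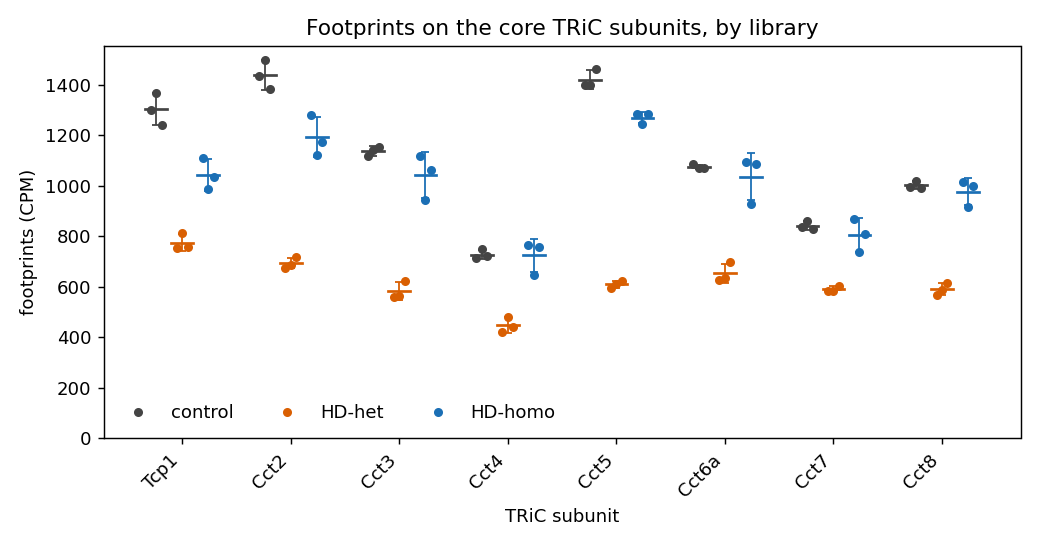
Footprints (y axis, CPM from 0) on each core TRiC subunit (x axis) in the 3 libraries of each line (points, with mean and SD). The HD-het libraries lie below all control and HD-homo libraries for every subunit.

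Each subunit has the same number of places in the TRiC ring, so that their footprints per length can be set beside each other. Per kilobase of coding sequence, control levels ran from 449 ± 11.1 CPM (Cct4) to 894 ± 36.8 CPM (Cct2), a ratio of 2.02 to 2.03 within each library. In HD-het they ran from 277 ± 18.6 CPM (Cct4) to 464 ± 19.5 CPM (Tcp1), and the ratio of the highest to the lowest subunit was 1.64 to 1.75. In HD-homo the ratio was 1.68 to 1.92. Cct4 was the lowest in all 3 lines. Cct2 and Cct5, at 894 and 873 CPM per kilobase in control, did not differ beyond their spread there. The coding length used for Cct6a is that of a transcript that aligns to this assembly over 94% of its length. Cct6b, a subunit variant known from testis, was at 4.10 to 6.14 CPM in control and lower in HD-het (log2 fold change -0.59 ± 0.23, adjusted p = 0.0441).

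Proteins that deliver substrates to TRiC moved in part with it. Of 12 genes for prefoldin and other TRiC cofactors, 6 fell and 3 rose in HD-het against control (median -0.19). Of all genes tested, 29.1% fell and 31.0% rose in HD-het, and 22.3% fell and 23.3% rose in HD-homo. Pfdn5, a prefoldin subunit, fell from 282 to 136 CPM (log2 fold change -1.05, adjusted p = 1.37e-05), and Pdrg1 rose from 52.6 to 93.4 CPM (0.83, adjusted p = 5.96e-05). In HD-homo against control, 1 of the 12 fell, the phosducin-like Pdcl3 (-0.58, adjusted p = 0.000172), and 1 rose, Pdrg1 (0.35, adjusted p = 0.0205). Against HD-het, 6 were higher and 3 lower in HD-homo, beside 34.6% and 32.8% of all genes. With GC and length offsets, 2 were higher.

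Both cytosolic HSP90 genes were lower in both mutant lines. Hsp90ab1, the constitutive form, was at 5909, 5519 and 5597 CPM in control, 3478, 3058 and 3345 CPM in HD-het and 3354, 3393 and 3365 CPM in HD-homo. The 2 mutant lines overlapped each other and lay below all control libraries. The log2 fold changes against control were -0.78 ± 0.08 in HD-het (adjusted p = 7.64e-06) and -0.75 ± 0.08 in HD-homo (adjusted p = 1.12e-05), and the mutant lines did not pass the threshold against each other (0.03 ± 0.08, adjusted p = 0.713). Hsp90aa1, the inducible form, fell less, by 0.44 in HD-het (adjusted p = 0.000246) and 0.28 in HD-homo (adjusted p = 0.00706) on the log2 scale. Within a library, Hsp90ab1 had 1.57 to 1.60 counts for each count of Hsp90aa1 in control, 1.17 to 1.33 in HD-het and 1.11 to 1.18 in HD-homo. Hsp90aa1 did not pass the threshold between the mutant lines either (0.16 ± 0.07, adjusted p = 0.0577), although their libraries did not overlap. It was past it under 4 of 18 alternatives, with adjusted p from 0.00617 to 0.0458.

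Among the HSP110 proteins, which release nucleotide from HSP70 and help to dissolve aggregates, Hsph1 fell most. It was at 231, 229 and 244 CPM in control, 87.0, 90.0 and 103 CPM in HD-het and 175, 169 and 177 CPM in HD-homo. The 3 lines did not overlap, with HD-homo between the others. In HD-het its log2 fold change was -1.33 ± 0.08 (adjusted p = 3.67e-07), the largest fall of any member in that comparison, and -0.43 ± 0.08 in HD-homo (adjusted p = 0.00127). Hspa4l was lower in HD-het (-0.71 ± 0.13, adjusted p = 0.000523) and not past the threshold in HD-homo (-0.01 ± 0.13). Hspa4, with the most footprints per kilobase of the family, fell by 0.20 in HD-het and 0.27 in HD-homo (adjusted p = 0.0338 and 0.013). The Hspa4 call in HD-het was lost, among others, without HD-het replicates 1 or 3 or control replicates 1 or 2 (adjusted p from 0.0689 to 0.0969), and that in HD-homo without control replicate 2 (adjusted p = 0.0511).

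The HSP70 genes of the cytosol divided into 3 kinds. Hspa8, the constitutive HSP70 and the member with the highest level per kilobase in all 3 lines, was at 7482, 7549 and 7509 CPM in control, 5324, 5245 and 5550 CPM in HD-het and 6718, 6772 and 6932 CPM in HD-homo. It fell in HD-het (log2 fold change -0.48 ± 0.07, adjusted p = 0.000107). In HD-homo the difference of -0.14 ± 0.07 was not past the threshold (adjusted p = 0.11), although the libraries did not overlap, and it was past it in DESeq2 (adjusted p = 0.0285) and with GC and length offsets (-0.26, adjusted p = 0.00566). The stress-inducible Hspa1a and Hspa1b fell in both mutant lines. Hspa1b was at 70.2, 71.1 and 77.5 CPM in control, 35.4, 27.9 and 33.6 CPM in HD-het and 50.0, 61.1 and 46.6 CPM in HD-homo (-1.18 ± 0.12 and -0.47 ± 0.12 against control, adjusted p = 1.13e-05 and 0.0073). Hspa1a (chr17:34969359-34972156, GRCm38.p6) and Hspa1b (chr17:34956429-34959238) are near-identical copies, and their counts in a library agreed to within a ratio of 0.993 to 1.00. The rows may therefore hold the same fragments, and the copies cannot be told apart. Hspa1l, their neighbour, had 0.20 to 0.257 counts for each count of Hspa1a and the same direction (-1.17 in HD-het, adjusted p = 5.32e-05).

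Other HSP70 relatives took different courses. Hspa14, which acts at the ribosome, was not past the threshold in HD-het (-0.13, adjusted p = 0.177) and rose in HD-homo (0.28 ± 0.08, adjusted p = 0.0158). That rise was not past the threshold without control replicate 1 (0.23, adjusted p = 0.087) or with GC and length offsets (0.08). Hspa12a, an atypical HSP70, rose in HD-het from between 0.752 and 0.809 CPM to between 2.69 and 3.33 CPM (log2 fold change 1.97 ± 0.21, adjusted p = 1.69e-05). Hspa2, the testis-enriched HSP70, lay between 19.9 and 29.8 CPM in control and was not past the threshold in any comparison.

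Genes outside the set that work with these families moved in the same direction in HD-het. Of 29 co-chaperones of HSP70 and HSP90, 18 fell and 1 rose against control (median -0.30), beside 29.1% and 31.0% of all genes. Ppid, a cyclophilin that binds HSP90, fell from 200 to 69.0 CPM (log2 fold change -1.54, adjusted p = 4.28e-06), and Bag4 from 24.2 to 13.2 CPM (-0.88, adjusted p = 6.92e-06). Rpap3, which works with HSP90 in building RNA polymerases, fell by 0.86 (adjusted p = 8.14e-06). In HD-homo against control, 10 fell and 3 rose, beside 22.3% and 23.3% of all genes. The largest change was that of Bag2 (-1.17, adjusted p = 2.85e-07). Without control replicate 3 the 10 became 5. Against HD-het, 18 were higher and 5 lower in HD-homo, beside 34.6% and 32.8% of all genes.

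The list of 23 genes of the cytosolic heat shock response, 14 of them members, had 18 lower and 3 higher in HD-het against control. In HD-homo, 11 were lower and 3 higher. The 3 in HD-homo became 1 without control replicate 1 or without HD-homo replicate 2. Of all genes, 29.1% were lower and 31.0% higher in HD-het, and 22.3% and 23.3% in HD-homo. Its non-members included Serpinh1, a collagen chaperone of the ER that is also a heat shock gene, which rose from 505 to 1328 CPM in HD-het (log2 fold change 1.39, adjusted p = 3.01e-05). Cryab, a small heat shock protein whose symbol lies outside the naming rule, fell in HD-het from 158 to 49.7 CPM, and in HD-homo to 33.6 CPM (-1.67 and -2.24, adjusted p = 1.99e-05 and 2.71e-06). In HD-homo against HD-het, 12 of the 23 were higher and 3 lower, beside 34.6% and 32.8% of all genes.

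HSF1, the activator of these genes, was itself among the members that fell. Hsf1 was at 16.7, 17.7 and 19.0 CPM in control, 9.41, 10.3 and 10.5 CPM in HD-het and 18.8, 14.5 and 17.4 CPM in HD-homo. Only the HD-het libraries stood apart, with a log2 fold change of -0.82 ± 0.12 against control (adjusted p = 0.000108) and 0.75 ± 0.12 for HD-homo against HD-het (adjusted p = 0.000155). Hsf2, the second heat shock factor, fell in HD-het (-0.37 ± 0.09, adjusted p = 0.00513) and HD-homo (-0.34 ± 0.09, adjusted p = 0.0109). Bag3, which joins HSP70 to small heat shock proteins and autophagy, ran the other way. It was at 63.6, 67.2 and 67.0 CPM in control, 103, 92.6 and 82.3 CPM in HD-het and 73.3, 93.6 and 87.8 CPM in HD-homo, and rose in both lines (0.49 ± 0.11 and 0.36 ± 0.11, adjusted p = 0.00225 and 0.0172). The rise in HD-homo was lost without control replicate 1 (adjusted p = 0.0757) or HD-homo replicate 2 (adjusted p = 0.0535).

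The binding motif of HSF1 was looked for as GAANNTTC, which reads the same on both strands, in RefSeq promoter windows of GRCm38.p6 from 250 bases before to 50 after a gene start. Windows were found for 71 of the 88 members, and 16 of them (22.5%) held the motif, against 9.04% of all 27025 genes with a window. The following sites are shown because they lie upstream of members with footprint changes given in the text, and were chosen with those changes known, each on the strand of its gene with the motif in capitals:

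Hspa1b, chr17:34959324-34959353, minus strand: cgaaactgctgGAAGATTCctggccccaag

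Hspb1, chr5:135887801-135887830, plus strand: aGAAGTTTCcagatgggggcaGAACCTTCc

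Hspb6, chr7:30553170-30553199, plus strand: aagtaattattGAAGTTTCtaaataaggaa

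Hspe1, chr1:55088053-55088082, plus strand: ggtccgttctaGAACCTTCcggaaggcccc

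Cct2, chr10:117063399-117063428, minus strand: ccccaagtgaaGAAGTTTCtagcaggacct

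Hspa1a held the same 30 bases as Hspa1b. Of the 16 members with the motif, 15 were tested. Of these, 8 fell and 4 rose in HD-het, and 9 fell and 1 (Bag3) rose in HD-homo. Against HD-het, 5 were higher and 3 lower in HD-homo, beside 34.6% and 32.8% of all genes. None of the 15 ER members with a window held the motif. Over the 686 tested genes that held it, 207 rose and 214 fell in HD-het, beside 31.0% and 29.1% of all genes. In HD-homo 174 of the 686 rose and 157 fell, beside 23.3% and 22.3% of all genes. The 671 that are not members had a median log2 fold change of 0.01 in HD-het. Of the 7 core TRiC subunits with a window, Cct2 alone held it. The motif is a match of letters and no evidence of binding.

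The ER members rose together in HD-het. Of 17, 14 were higher than in control and none was lower, beside 31.0% and 29.1% of all genes. The median log2 fold change of the 17 was 0.80. In HD-homo 16 were not past the threshold against control and 1 fell, where 22.3% of all genes fell. Against HD-het, 14 were lower in HD-homo, beside 32.8% of all genes. The summed level of the ER members was 10331, 10124 and 7098 CPM in control, 14884, 14092 and 18087 CPM in HD-het and 8713, 7529 and 9539 CPM in HD-homo. Control replicate 3 was the lowest control library and HD-het replicate 3 the highest of its line. Without control replicate 3 the count was again 14, and without HD-het replicate 3 it was 12, with Calr and Hsp90b1 no longer past the threshold (adjusted p = 0.0549 and 0.0571). Beside these values, the 6 mesenchymal markers (Col1a1, Col1a2, Col3a1, Pdgfrb, Acta2 and Tagln, none of them at 0) had sums of 6832 to 9748 CPM per control library, 28675 to 30885 CPM per HD-het library and 5593 to 7142 CPM per HD-homo library, and their part in the result was not tested.

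Hspa5 (BiP), the HSP70 of the ER, was at 1926, 1906 and 1295 CPM in control, 3300, 3302 and 4065 CPM in HD-het and 1855, 1496 and 2048 CPM in HD-homo. All HD-het libraries lay above the others, with a log2 fold change of 1.06 ± 0.16 against control (adjusted p = 0.000216), whereas HD-homo overlapped control (0.07 ± 0.16, adjusted p = 0.741). Pdia3, a disulfide isomerase that works with the lectin chaperones, followed closely, with 1475, 1519 and 1001 CPM in control and 2476, 2647 and 3179 CPM in HD-het (1.05 ± 0.16, adjusted p = 0.000176). The lectin chaperones rose less, calnexin (Canx) by 0.65 ± 0.13 (adjusted p = 0.00156) and calreticulin (Calr) by 0.50 ± 0.14 (adjusted p = 0.0105). Hsp90b1 (GRP94), the HSP90 of the ER, went from 2703, 2549 and 1642 CPM to 3438, 2998 and 4159 CPM (0.62 ± 0.18, adjusted p = 0.011). Within the HSP90 family the ER and cytosolic forms thus changed in opposite directions. There were 0.293 to 0.462 counts of Hsp90b1 for each count of Hsp90ab1 in control, 0.981 to 1.24 in HD-het and 0.432 to 0.550 in HD-homo. The same ratio of Hspa5 to Hspa8 was 0.172 to 0.257 in control, 0.620 to 0.732 in HD-het and 0.221 to 0.296 in HD-homo. The span of Hspa5 overlaps Rabepk, and that of Pdia3 overlaps Catsper2.

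The J proteins Dnajc1, Dnajb9 and Dnajc3 gave the largest rises of the class in HD-het. Dnajc1, a J protein of the ER membrane that binds ribosomes, was at 37.6, 34.3 and 30.1 CPM in control and 81.4, 74.3 and 111 CPM in HD-het (log2 fold change 1.39 ± 0.15, adjusted p = 1.84e-05). Dnajb9 (ERdj4), a target of XBP1, rose in HD-het and fell in HD-homo. It was at 9.78, 10.6 and 9.82 CPM in control, 21.9, 23.5 and 25.9 CPM in HD-het and 5.40, 4.97 and 8.07 CPM in HD-homo, so that no line overlapped another (1.24 ± 0.15 and -0.72 ± 0.16 against control, adjusted p = 4.5e-05 and 0.00383). Dnajb9 was the one ER member to fall in HD-homo. Dnajc3 (p58IPK), which also restrains the eIF2α kinase PERK, rose by 1.14 ± 0.15 (adjusted p = 7.53e-05), and the atypical HSP70 Hspa13 by 0.86 ± 0.15 (adjusted p = 0.000547). Dnajc10, a disulfide reductase with a J domain, rose by 0.99 ± 0.11, Dnajc16 by 0.84 ± 0.14, Dnajb14 by 0.80 ± 0.09, Dnajc18 by 0.69 ± 0.12 and Dnajb11 by 0.56 ± 0.14 in HD-het (adjusted p from 1.88e-05 to 0.00488). The 3 that did not pass the threshold were Dnajc25 (0.37, adjusted p = 0.0515), Dnajc14 (-0.13) and Dnajb12 (-0.21).

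In HD-homo the ER class lay near control, with a median of -0.01. Hsp90b1 was the nearest to the threshold below Dnajb9, at 1668, 1465 and 1852 CPM (log2 fold change -0.47 ± 0.18, adjusted p = 0.0522). The result for this gene turned on the setting: it passed the threshold under 7 of 18 alternatives, among them without control replicate 3 (-0.66 ± 0.14, adjusted p = 0.00341). Canx (-0.34, adjusted p = 0.0609) passed under 5 alternatives, again with the largest fall without control replicate 3 (-0.48, adjusted p = 0.00679), and Hspa13 (-0.32, adjusted p = 0.105) passed without that library (-0.47, adjusted p = 0.0199). Against HD-het, Hspa5, Pdia3, Canx and Hsp90b1 were lower by 0.98, 0.99, 0.98 and 1.09 on the log2 scale (adjusted p from 6.12e-05 to 0.000262), and Calr fell by 0.37 (adjusted p = 0.039). Among other settings, the fall of Calr was not past the threshold with total counts (adjusted p = 0.0512) or without HD-het replicates 1 or 3 or HD-homo replicates 1 or 2 (adjusted p from 0.0836 to 0.153).

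**Figure D3:**
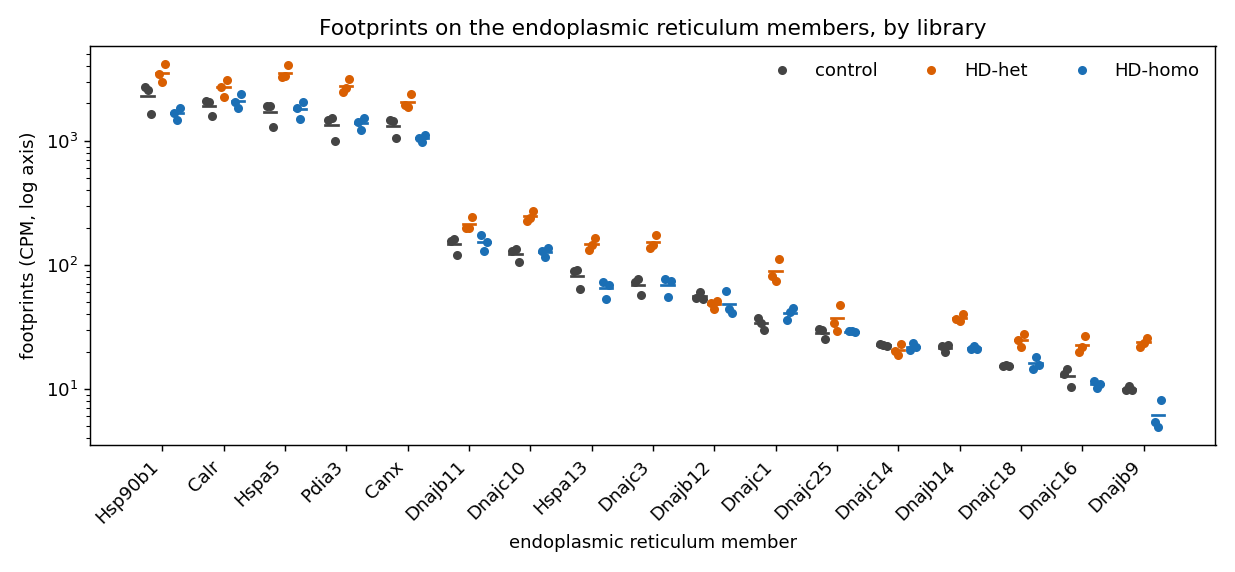
Footprints (y axis, CPM on a log axis) on the 17 ER members (x axis, by falling control mean) in the 3 libraries of each line (points, with the mean as a bar). HD-het lies above control for 14 of them, and for the 5 genes with the most footprints the third control point is the lowest.

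Promoters of ER chaperones are known for the ER stress element, a CCAAT box and CCACG set 9 bases apart. The element was searched on both strands in the same windows, and its CCAAT part is by construction also a CCAAT box. It occurred in 37 of 27025 genes (0.137%) and in 5 of the 15 ER members with a window. The 5 are shown because all of them rose in HD-het, on the strand of the gene with the element in capitals (CGTGG before ATTGG where it runs the other way):

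Hspa5, chr2:34772020-34772049, plus strand: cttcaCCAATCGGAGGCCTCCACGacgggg

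Hsp90b1, chr10:86705632-86705661, minus strand: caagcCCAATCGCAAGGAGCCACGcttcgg

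Hsp90b1, chr10:86705527-86705556, minus strand: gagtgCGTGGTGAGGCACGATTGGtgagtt

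Calr, chr8:84847069-84847098, minus strand: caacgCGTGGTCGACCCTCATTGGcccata

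Canx, chr11:50325794-50325823, minus strand: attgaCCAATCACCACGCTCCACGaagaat

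Dnajc3, chr14:118937822-118937851, plus strand: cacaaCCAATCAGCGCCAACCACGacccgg

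The elements end between 46 bases (Hspa5) and 193 bases (Hsp90b1) before the gene start. No other member held one, and 15 tested genes held one in all. Of the 10 that are not members, 3 rose and none fell in HD-het, where 31.0% of all genes rose and 29.1% fell. These 10 include the disulfide isomerase Pdia6, which rose (log2 fold change 1.02, adjusted p = 0.000189), and Creld2 and Syvn1, which were not past the threshold. Pdia3, Dnajc1, Dnajb9 and Dnajc10 rose and held no element in their windows. The CCAAT box alone occurred in 41.1% of genes and in 8 of the 15 ER members, and the ATF4 site TGATGCAA in 1.03% of genes and in no member.

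Genes outside the set that serve the same compartment moved likewise. The list of 26 ER chaperones and sensors of the unfolded protein response had 24 higher and none lower in HD-het against control (median 0.83). Beside these, 31.0% of all genes rose and 29.1% fell. Of the 16 that are not members, 14 were higher. Sel1l, an adaptor of ER-associated degradation, rose from 68.7 to 170 CPM (log2 fold change 1.30, adjusted p = 2.09e-05). Pdia4, a disulfide isomerase, rose from 224 to 497 CPM (1.15, adjusted p = 0.000141), and Edem1, which hands glycoproteins to degradation, from 14.7 to 32.7 CPM (1.15, adjusted p = 3.36e-05). The factors Xbp1 and Atf6 were among those that rose (0.67 and 0.76, adjusted p = 0.000349 and 0.000539). In HD-homo against control, 1 of the 26 was higher and 4 lower, beside 23.3% and 22.3% of all genes. The 4 became 2 without control replicate 2, and 8 without control replicate 3 or with GC and length offsets. Against HD-het, 24 were lower in HD-homo, beside 32.8% of all genes.

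The mitochondrial chaperonin is built from Hspd1 (HSP60) and its lid Hspe1 (HSP10), whose genes lie head to head. The listed start of Hspe1 is 216 bases from a start of Hspd1, and the single GAANNTTC site printed above for Hspe1 lies between these starts. A further annotated start of Hspd1 makes the gene spans overlap (chr1:55088148-55091317 and chr1:55077833-55088243). Hspd1 was at 1411, 1441 and 1269 CPM in control, 597, 619 and 842 CPM in HD-het and 845, 815 and 809 CPM in HD-homo. Both mutant lines lay below control, and the log2 level fell by 1.00 ± 0.12 in HD-het and by 0.74 ± 0.12 in HD-homo (adjusted p = 3.85e-05 and 0.000473). Hspe1 was at 680, 690 and 645 CPM in control, 299, 338 and 362 CPM in HD-het and 681, 607 and 711 CPM in HD-homo. It fell in HD-het (-1.01 ± 0.09, adjusted p = 5.2e-06) and overlapped control in HD-homo (-0.01 ± 0.09, adjusted p = 0.931).

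The 2 genes therefore kept step in HD-het and parted in HD-homo. Within a library, the ratio of Hspe1 to Hspd1 counts was 0.479 to 0.508 in control, 0.430 to 0.545 in HD-het and 0.745 to 0.878 in HD-homo, where no HD-homo library overlapped another line. In HD-homo against HD-het, Hspe1 rose by 1.00 ± 0.09 (adjusted p = 3.07e-06) and Hspd1 was not past the threshold (0.26 ± 0.12, adjusted p = 0.0754). Without HD-het replicate 3 the latter was 0.44 (adjusted p = 0.00134), and with total counts it was 0.35 (adjusted p = 0.0107).

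**Figure D4:**
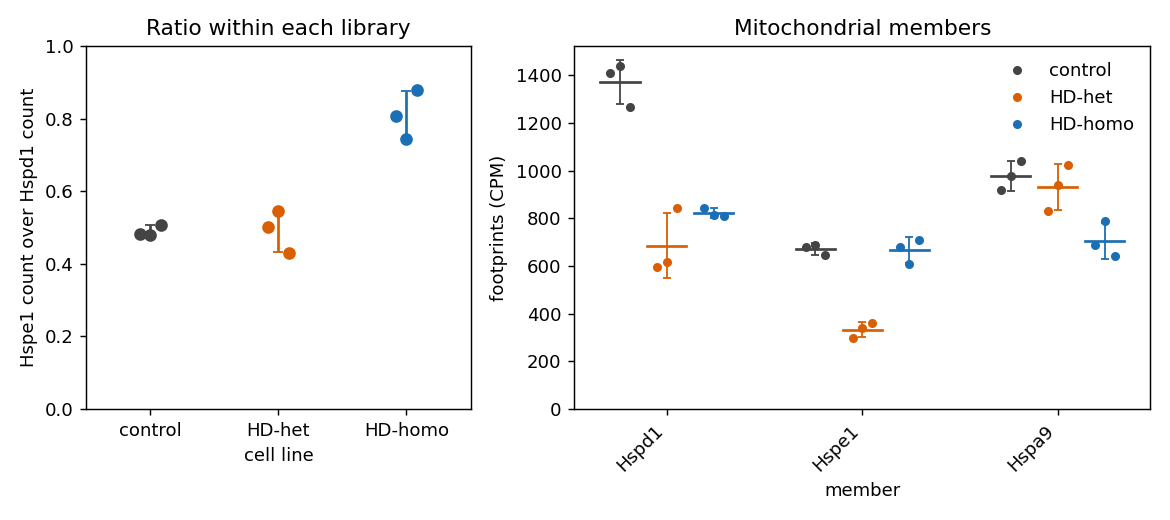
Left, the ratio of Hspe1 to Hspd1 counts (y axis from 0) in each library of the 3 lines (points, with the SD as a bar); right, footprints (CPM, with mean and SD) on Hspd1, Hspe1 and Hspa9. The ratio is above 0.7 in the HD-homo libraries alone, and Hspe1 in HD-homo lies at the control level.

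Hspa9 (mortalin), the HSP70 of the matrix and of protein import, was lower in HD-homo, at 689, 790 and 642 CPM against 918, 976 and 1041 CPM in control (log2 fold change -0.47 ± 0.10, adjusted p = 0.00353). In HD-het it was not past the threshold (-0.07, adjusted p = 0.581), except with GC and length offsets (-0.25, adjusted p = 0.0474). Dnajc11, a J protein tied to cristae organization, fell in HD-het from 102, 96.4 and 105 CPM to 73.2, 63.5 and 73.9 CPM (-0.53 ± 0.09, adjusted p = 0.00032). Dnaja3 (Tid1) and Dnajc30 did not pass the threshold against control in either line. In all, 3 of 8 mitochondrial members fell in HD-het and 1 rose, beside 29.1% and 31.0% of all genes. The 3 became 5 without HD-het replicate 3 or with total counts, and 6 with GC and length offsets. In HD-homo 2 of the 8 fell and 1 rose, beside 22.3% and 23.3% of all genes.

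Dnajc15, a J protein of the import motor of the inner membrane, was not detected in control. Its counts were 0 in all 3 control libraries, and it stood at 16.9, 14.6 and 16.6 CPM in HD-het and 9.68, 8.41 and 8.82 CPM in HD-homo. Set against 3 counts per control library, HD-het was at least 161-fold higher (adjusted p = 1.49e-08) and HD-homo at least 90.1-fold higher (adjusted p = 1.41e-08). HD-homo was lower than HD-het (log2 fold change -0.83 ± 0.12, adjusted p = 0.000198). The gene (chr14:77826217-77874917) overlaps no other annotated gene. Its close relative Dnajc19 lay at 18.6 to 19.9 CPM in control and was not past the threshold in any comparison (adjusted p from 0.0516 to 0.935). The row of the pseudogene Dnajc19-ps had 0.928 to 0.972 counts for each count of Dnajc19 and may hold the same fragments.

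Of 16 mitochondrial chaperones and proteases, 6 fell and 4 rose in HD-het against control, and 7 fell and 1 rose in HD-homo. Beside these, 29.1% of all genes fell and 31.0% rose in HD-het, and 22.3% and 23.3% in HD-homo. Non-members included Clpp, a matrix protease, which fell in HD-het (log2 fold change -0.73, adjusted p = 0.000462), Timm44, which anchors Hspa9 to the import channel (-0.70, adjusted p = 7.73e-05), and the disaggregase Clpb, which fell in HD-homo from 14.5 to 7.60 CPM (-0.92, adjusted p = 0.000593). In HD-homo against HD-het, 6 were higher and 5 lower, beside 34.6% and 32.8% of all genes. The mitochondrial list thus had no common direction in HD-het or between the mutant lines. In HD-homo against control more of it fell than rose.

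The small heat shock proteins hold unfolded proteins in large assemblies without using ATP. For Hspb1 and Hspb6 the line that stood apart was HD-homo. Hspb1 (HSP25) was at 67.2, 69.8 and 60.4 CPM in control, 87.6, 73.5 and 77.0 CPM in HD-het and 17.4, 18.1 and 17.5 CPM in HD-homo. The fall in HD-homo was 3.73-fold (log2 fold change -1.90 ± 0.10, adjusted p = 3.92e-08). Hspb6 (HSP20) was at 29.5, 29.0 and 29.6 CPM in control, 43.8, 39.5 and 33.3 CPM in HD-het and 7.29, 6.50 and 9.71 CPM in HD-homo, a fall of 3.77-fold (-1.91 ± 0.15, adjusted p = 1.25e-06). Both were also lower in HD-homo than in HD-het, by 2.17 and 2.32 on the log2 scale, the largest falls among the members in that comparison. Their rises in HD-het, of 0.27 and 0.41 (adjusted p = 0.023 and 0.0237), were each lost in 5 of 18 alternatives. These were, for Hspb1, no filter, total counts and the fits without HD-het replicate 1 or control replicates 1 or 3, and for Hspb6 those without HD-het replicates 1 or 2 or any 1 control library (adjusted p up to 0.138 and 0.116). The span of Hspb6 overlaps Lin37. Beside these values, some marker genes were also lowest in HD-homo. Means follow in the order control, HD-het and HD-homo. Of the mesenchymal list, Acta2 was at 4099, 8386 and 267 CPM and Tagln at 535, 3212 and 47.5 CPM. Col3a1 was at 431, 1483 and 352 CPM. The other genes of that list were lowest in control: Col1a1 (3343, 16518 and 4567 CPM), Pdgfrb (45.9, 354 and 56.3 CPM) and Col1a2 (24, 88.9 and 1027 CPM). Of the neural progenitor list, 5 of 6 were over 1 CPM. Its sums per library were 9583 to 9850, 9011 to 9836 and 5989 to 6524 CPM. Nes was at 400, 1086 and 7.01 CPM and Sox2 at 51.1, 33.9 and 2.26 CPM. Vim was at 9229, 8275 and 6197 CPM and Pax6 at 17.3, 24.8 and 0.0759 CPM. Fabp7 was lowest in control, at 1.12, 22.3 and 3.04 CPM. The part of these differences in the result was not tested.

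Hspb8, the partner of Bag3, fell in both lines. It was at 56.7, 53.3 and 57.0 CPM in control, 46.5, 45.1 and 41.7 CPM in HD-het and 38.3, 48.0 and 37.0 CPM in HD-homo (log2 fold change -0.33 ± 0.10 and -0.44 ± 0.10, adjusted p = 0.0189 and 0.00545). The call in HD-het was lost without HD-het replicate 3 or control replicate 3 (adjusted p = 0.0524 and 0.0521). Hspb8 thus fell where Bag3 rose. Hspb2 stayed at 1.02 CPM or less and was past the threshold in no comparison, except with GC and length offsets (0.74 in HD-het against control, adjusted p = 0.0302, and -0.65 in HD-homo against HD-het, adjusted p = 0.0483). The symbol Hspb11 belongs to an intraflagellar transport protein. It rose in HD-het by 0.32 (adjusted p = 0.0354), a call lost in 8 of 18 alternatives, among them each fit without 1 control library (adjusted p from 0.0833 to 0.0947) or without HD-het replicates 1 or 2 (0.108 and 0.154).

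**Figure D5:**
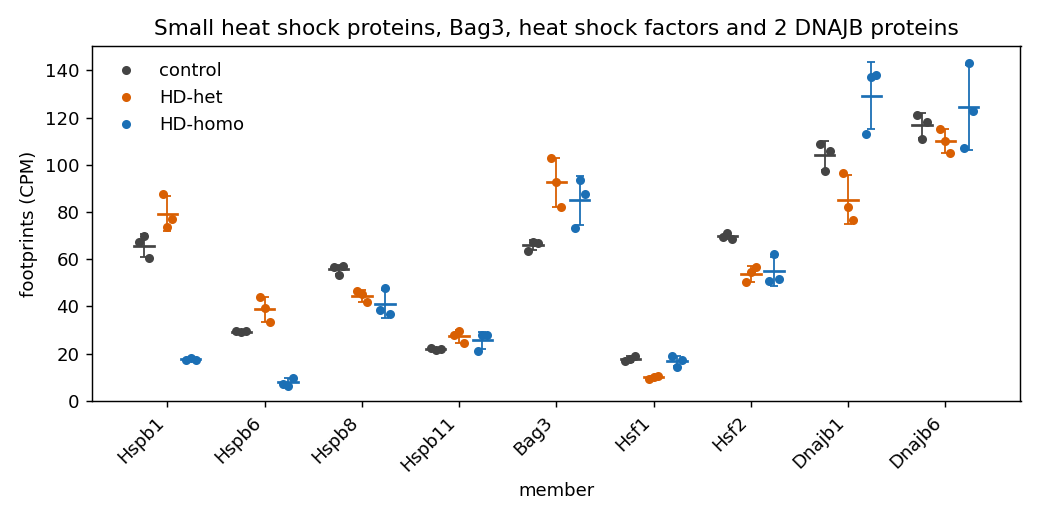
Footprints (y axis, CPM from 0) on small heat shock proteins, Bag3, the heat shock factors, Dnajb1 and Dnajb6 (x axis) in the 3 libraries of each line (points, with mean and SD). Hspb1 and Hspb6 are low in HD-homo alone, and Hsf1 in HD-het alone.

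The J proteins of the cytosol and nucleus moved in both directions. Of 20, 19 were tested, and 8 fell and 4 rose in HD-het, where 29.1% of all genes fell and 31.0% rose. In HD-homo 2 fell and 5 rose, beside 22.3% and 23.3% of all genes. Against HD-het 8 were higher and 3 lower, beside 34.6% and 32.8% of all genes. The 5 became 2 without control replicate 2, 3 without control replicates 1 or 3 or HD-homo replicates 2 or 3, and 1 with GC and length offsets. The 2 that fell became 4 without HD-homo replicate 2. Dnaja2, a J protein that serves HSP70 in general folding, went in HD-het from 685, 654 and 649 CPM to 486, 479 and 447 CPM (log2 fold change -0.49 ± 0.09, adjusted p = 0.000449), and its relative Dnaja1 fell by 0.34 (adjusted p = 0.00449). In HD-homo, Dnaja2 was higher than in control, at 766, 755 and 897 CPM (0.28 ± 0.09, adjusted p = 0.0186), and Dnaja1 was not past the threshold (-0.15, adjusted p = 0.158).

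Dnajc21, needed for maturation of the large ribosomal subunit, was at 65.2, 56.5 and 62.4 CPM in control, 29.7, 26.3 and 28.4 CPM in HD-het and 55.2, 66.9 and 59.7 CPM in HD-homo (log2 fold change in HD-het -1.13 ± 0.10, adjusted p = 3.78e-06). Dnajc2 (MPP11), which sits at the exit of the ribosomal tunnel with Hspa14, fell in HD-het from 139, 131 and 129 CPM to 93.7, 90.2 and 99.8 CPM (-0.50 ± 0.09, adjusted p = 0.000755). It rose in HD-homo, to 155, 165 and 193 CPM (0.36 ± 0.09, adjusted p = 0.00823), a call lost with GC and length offsets (0.17, adjusted p = 0.115). Dnajc12, a partner of aromatic amino acid hydroxylases, was at 12.7, 11.4 and 12.5 CPM in control, 6.72, 4.04 and 4.73 CPM in HD-het and 16.0, 20.4 and 12.9 CPM in HD-homo. The lines did not overlap, and the fall in HD-het was -1.25 ± 0.20 (adjusted p = 0.000284). In HD-homo against control, Dnajc12 was not past the threshold (0.43 ± 0.19, adjusted p = 0.0818), except without HD-homo replicate 3 (0.57, adjusted p = 0.0318). Its rise of 1.68 ± 0.20 in HD-homo against HD-het (adjusted p = 2.12e-05) was the largest among the members.

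Members that rose in HD-het included Dnajb4, with 73.7, 72.2 and 73.5 CPM in control and 138, 137 and 131 CPM in HD-het (log2 fold change 0.89 ± 0.19, adjusted p = 0.00192). Dnajb5 rose in HD-het from 10.4, 9.04 and 9.44 CPM to 18.4, 14.0 and 15.0 CPM (0.72 ± 0.14, adjusted p = 0.00107). In HD-homo it fell, to 5.62, 6.80 and 4.97 CPM (-0.73 ± 0.15, adjusted p = 0.00195), so that Dnajb5 had the order HD-het, control, HD-homo, as did Dnajb9, Hspb1 and Hspb6. Dnajc5 (cysteine string protein), which protects synaptic vesicle proteins, rose in both lines, by 0.31 and 0.48 (adjusted p = 0.00815 and 0.000769). The value in HD-het became -0.03 with GC and length offsets (adjusted p = 0.787). Dnajc24, an enzyme cofactor of diphthamide synthesis, rose in HD-homo by 0.32 ± 0.10 (adjusted p = 0.02). That call was lost in 5 of 18 alternatives, without control replicates 1 or 2, without HD-homo replicates 2 or 3 and with the offsets (adjusted p from 0.0509 to 0.489).

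Members that modify polyglutamine aggregation in cells or test tubes were taken as a list of 22, of which 20 were tested. Of these, 16 fell and 2 rose in HD-het against control, and 6 fell and 2 (Dnajb1 and Bag3) rose in HD-homo. Over all genes, 29.1% fell and 31.0% rose in HD-het, and 22.3% fell and 23.3% rose in HD-homo. The 16 include the 8 TRiC subunits, with Hsph1, Hspa8, Hspa4, Hsf1, Hspb8 and the J proteins Dnaja1, Dnajb1 and Dnajc7. When 1 library was left out, the number lower in HD-het was 13 to 16 and in HD-homo 4 to 7, and with GC and length offsets the latter was 10. Neither rise in HD-homo passed the threshold without control replicate 1 or HD-homo replicate 2, and of the rises in HD-het, that of Hspb1 is the less stable one described above. In HD-homo against HD-het, 13 were higher and 1, Hspb1, was lower, beside 34.6% and 32.8% of all genes.

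Dnajb6, a J protein known as a strong suppressor of polyglutamine aggregation, was at 121, 111 and 118 CPM in control, 115, 110 and 105 CPM in HD-het and 107, 143 and 123 CPM in HD-homo, and the 3 lines overlapped. Its log2 fold changes were -0.08 ± 0.10 in HD-het and 0.09 ± 0.10 in HD-homo against control, past the threshold in neither (adjusted p = 0.494 and 0.481). Its relative Dnajb8 had at most 1 count in any library. Dnajb1 (HSP40) was at 109, 97.2 and 106 CPM in control, 96.6, 82.3 and 76.6 CPM in HD-het and 113, 137 and 138 CPM in HD-homo. It passed the threshold downward in HD-het (-0.28 ± 0.11, adjusted p = 0.0402) and upward in HD-homo (0.32 ± 0.11, adjusted p = 0.0331), and neither call was stable. That in HD-het was lost without HD-het replicates 2 or 3 or control replicates 1 or 3 (adjusted p from 0.0886 to 0.11), and with at least 10 counts in every library (0.0624). The call in HD-homo was lost without any 1 control library, HD-homo replicates 2 or 3 or HD-het replicate 2 (adjusted p from 0.0542 to 0.119), and with GC and length offsets (0.0942). The difference between the mutant lines, 0.60 ± 0.11 (adjusted p = 0.000467), was kept in every alternative. Dnajb2 was past the threshold in no comparison, and Dnajc7 fell in HD-het alone (-0.38 ± 0.08, adjusted p = 0.00203).

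The members not tested were Dnajb8, Dnajb13, Dnajc6, Dnajc22, Hspa12b, Hspb3, Hspb7 and Hspb9, which stayed at 0.493 CPM or less in every library, Hspb9 at 0 in all 9. Among J proteins not yet described, Dnajc9, a histone chaperone, fell in HD-het (log2 fold change -0.58, adjusted p = 0.00369), Dnajc13, of the endosome, rose there (0.23, adjusted p = 0.0275), and Dnajc27 fell in HD-homo (-0.86, adjusted p = 0.0154) from 1.53 to 1.84 CPM in control. Dnajc8, a splicing factor, passed the threshold between the mutant lines alone, higher in HD-homo (0.45, adjusted p = 0.0292), with overlapping libraries. Dnaja4, Dnajc4 and Dnajc17 were past the threshold in no comparison. Of the remaining rows, Dnajb3, Dnajb7, Dnajc5b, Dnajc5g and Dnajc28 were tested at levels of 1.41 CPM or less. Dnajc28 rose in both lines (log2 fold change 1.13 in HD-het and 1.04 in HD-homo, adjusted p = 0.0012 and 0.00315) from 0.428 to 0.458 CPM in control. Dnajc5g rose in HD-het (1.29, adjusted p = 0.0359).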

How the data were processed

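Per the labels, footprints came from the monosome fraction, and the processing notes name cutadapt, Bowtie 1.0.1 and mm10. The authors deposited raw counts, 1 per gene symbol and library, neither normalized nor pooled. The counting program, annotation, use of strand and treatment of fragments that map to several places are not given in the sources used here. No mRNA values were used.

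The counts were tested with the quasi-likelihood method of edgeR 4.0.16 (with limma 3.58.1 and R 4.3.3), scaled by TMM, low rows removed by filterByExpr, group means as the terms and all 9 libraries in 1 fit. Adjustment (Benjamini-Hochberg) ran over all 12678 genes tested, and 0.05 was the threshold. The scripts were tested on simulated data. Replicates correlated at 0.988 or more on the log2 scale, across genes, which are not independent. P-values measure the spread between rounds of culture of 1 line. Alternatives were RLE size factors, total counts, DESeq2 1.42.0, the table unfiltered, a minimum of 10 counts in each library, the 6 libraries compared, a replicate block, loess offsets (span 0.5) for GC content and transcript length (98.1% of tested genes), rows under older symbols left out (283, no member among them), and each library left out. Rows whose symbols had become dates (26, with 0.252% of counts) were kept.

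The members and lists were chosen with earlier results of these data known. Named in full were the TRiC, HSP90, HSP110 and expressed HSP70 members, HSP60, HSP10, the heat shock factors, Bag3, Calr, Canx, Pdia3, tested small heat shock proteins, polyglutamine modifiers, members at 0 in 1 line and at least 10 CPM in another, and in each comparison the 5 largest rises and falls past the threshold with at least 10 CPM and no overlap. Compartment classes, from textbook knowledge, and all other named members were chosen after their values were seen, as were list examples beyond the largest changes past the threshold. Coordinates, coding lengths and promoters came from RefSeq (GRCm38.p6), in which all 88 symbols matched. Protein sequences were not analysed here.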

Additional observations from a re-analysis of the deposited data

How the results depend on the processing

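Over the 3 comparisons and 18 alternatives, 52 tested members were followed. Of the calls against control, 36 of 45 in HD-het and 17 of 24 in HD-homo held in every alternative, as did 36 of 38 in HD-homo against HD-het. The counts of all 8 TRiC subunits below control in HD-het, and above HD-het in HD-homo, were the same in each. The number of members higher in HD-homo than in control, 9, became 4 with GC and length offsets and 5 to 11 when 1 library was left out, with 5 without control replicate 1. The number of TRiC subunits lower in HD-homo, 2, became 5 with these offsets and 1 to 2 when 1 library was left out, with 1 without control replicate 2. The offsets moved the median of all genes to -0.14 in HD-het and 0.12 in HD-homo against HD-het. With them, Dnajc5 in HD-het went to -0.03 and Dnajc24 in HD-homo against HD-het to -0.05 on the log2 scale, both past no threshold; the cause was not tested. Replicate numbers did not pair the samples, since the deviations of same-numbered libraries from their group means correlated at -0.36 to 0.18. With the replicate number as a block, 25 members were higher and 31 lower in HD-het, 8 and 18 in HD-homo, and 28 and 21 in HD-homo against HD-het, and TRiC subunits lower numbered 8 and 2. Calls no longer past the threshold with it were Dnajb1 in HD-het and HD-homo (adjusted p = 0.0681 and 0.0592), Hspa4 and Hspb11 in HD-het (0.0535 and 0.0514), and Calr in HD-homo against HD-het (0.056). The library number (3 per line) and the low counts of Dnajc28, Dnajc5g and Hspa12a limit the precision. Rows of near-identical genes may count the same fragments.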
